A study of Mus musculus with 23 samples.

Results

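The cells described here were a small group inside the stem and progenitor gate of mouse bone marrow that carried transcripts of innate lymphoid cells. They were chosen from 6 droplet libraries of untransplanted mice by 5 genes: Il1rl1, the receptor for interleukin-33; Gata3, a transcription factor of type 2 lymphocytes and early T cells; Ccr9, a chemokine receptor of lymphoid progenitors that home to thymus and gut; Rnf128, a ubiquitin ligase of lymphocytes; and Skap1, an adaptor downstream of antigen receptors. A member had at least 3 UMIs (counted transcript molecules) in total and at least 2 genes detected among these 5, and fewer than 3 detected genes among the B-lineage genes Ebf1, Vpreb1, Vpreb3, Igll1, Cd79a and Pax5. The rule took 1377 of 50460 baseline cells with at least 1000 UMIs, at least 500 genes and at most 10% mitochondrial UMIs. The whole series holds 78945 such cells in 11 gene expression libraries. Because the rule was written on transcript values, the levels of its 11 genes are given as description, and nothing is read from which genes a test calls between members and other cells.

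The study compared 2 knockout lines with Control mice. In one, called Jarid2 KO here, Mx1-Cre acted on the Jarid2fl/fl allele, and in the other, called Ezh2 KO, on Ezh2fl/fl. Ezh2 is the catalytic subunit of Polycomb repressive complex 2 (PRC2), and Jarid2 is a co-factor of that complex. Mx1-Cre is listed for all groups, Control included, and its interferon-responsive promoter acts in many cell types, not in blood progenitors alone. Baseline mice were 2 months old, and their marrow was enriched for c-Kit and then sorted as c-Kit+ Sca1+ Lineage- (KSL) cells. Each genotype had 1 male and 1 female library, read for transcripts and for 6 surface antibodies; the other 5 libraries of the series, from transplant recipients, entered no comparison. The labels do not say whether a library held 1 animal or several, so p-values measure the spread between these libraries. In fits that pair classes of cells by library, they measure the spread of the difference between classes. Values below run in the order male, female within a genotype. In the chosen cells Jarid2 stood at 169 and 158 CPM for Control, 163 and 171 for Ezh2 KO and 228 and 183 for Jarid2 KO, so it was not lower in its knockout. Ezh2 stood at 176 and 210.2 CPM for Control, 153 and 132 for Ezh2 KO and 168 and 163 for Jarid2 KO, lowest in its knockout (log2 -0.47 against Control, adjusted p = 0.243 by edgeR). These 3′ counts need not fall in the deleted part, in which case they check nothing, and the labels do not name the deleted exons. CPM is a gene's UMIs per 1000000 gene UMIs, summed over the cells of a class in 1 library.

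Group 2 innate lymphoid cells are tissue lymphocytes that answer interleukin-33 and related signals without a rearranged antigen receptor. They arise in fetal liver and adult marrow from lymphoid progenitors that switch on Id2, Gata3, Tcf7, Bcl11b and Rora, and their marrow precursors lack lineage markers, carry high Sca1 and have little c-Kit. T cell precursors share much of this program, including Gata3, Bcl11b and Tcf7, so receptors and surface proteins are needed to separate them.

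Il1rl1 has 2 annotated start sites in RefSeq, and factors of the GATA family bind the core letters GATA. The 250 bases before each start are shown because Il1rl1 leads the rule and Gata3 is its companion; Stab2 is shown because most of its transcripts lay in the members (below). Capitals mark the longer GATAA or, on the other strand, TTATC. Other GATA cores, such as one in the Stab2 window, stay in lower case and were not counted. The build is GRCm38.p6 and each sequence runs in the direction of its gene.
Il1rl1 first start, chr1:40429320-40429569, plus strand: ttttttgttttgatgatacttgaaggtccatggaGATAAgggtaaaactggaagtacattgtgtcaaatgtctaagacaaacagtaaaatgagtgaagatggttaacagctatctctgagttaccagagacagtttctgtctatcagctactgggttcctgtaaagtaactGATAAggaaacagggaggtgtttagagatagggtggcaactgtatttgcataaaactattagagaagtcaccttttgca
Il1rl1 second start, chr1:40439379-40439628, plus strand: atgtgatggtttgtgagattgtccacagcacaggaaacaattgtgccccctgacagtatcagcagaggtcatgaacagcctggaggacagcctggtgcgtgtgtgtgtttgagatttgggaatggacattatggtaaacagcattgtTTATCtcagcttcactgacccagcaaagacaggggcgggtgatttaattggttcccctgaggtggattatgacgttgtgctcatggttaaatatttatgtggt
Stab2, chr10:87007943-87008192, minus strand: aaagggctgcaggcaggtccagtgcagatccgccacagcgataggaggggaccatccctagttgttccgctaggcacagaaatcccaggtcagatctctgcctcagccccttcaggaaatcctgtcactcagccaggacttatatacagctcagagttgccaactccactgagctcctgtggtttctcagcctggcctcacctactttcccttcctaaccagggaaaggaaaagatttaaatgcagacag
The Il1rl1 windows held 2 and 1 of these longer sites and the Stab2 window held 0. Among 32851 promoter windows of the same length 22.6% held at least 1 on either strand, and a match describes letters only.

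The members fell into a large group with several of the rule's genes and a smaller one that only just met it. Of the 1377, 464 detected 2 of the 5 genes, 211 detected 3, 391 detected 4 and 311 detected all 5. The 913 cells with 3 or more held more marker UMIs per cell (median 12 to 21 against 4) and had smaller totals: the median cell had 4241, 4091 and 4299 UMIs with 3, 4 and 5 genes. Cells with 2 genes had a median of 14393, above the 10968 to 13019 of all kept cells in the 6 libraries. Many lineage genes described below were higher in the 913, so results are given for all members and for these cells. At the edge of the rule, 145 members had just 3 UMIs of 2 genes, while 314 cells with 2 UMIs of 2 genes and 1439 cells with 3 or more UMIs of 1 gene lay outside it. A further 57 cells met the marker limits but were left out for their B-lineage genes, 52 of them in the Ezh2 KO libraries.

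Among the rule's genes Gata3 was detected in 86.1% of members, Skap1 in 84.6%, Ccr9 in 71.7%, Il1rl1 in 63.0% and Rnf128 in 34.4%. These shares are pooled and differed between libraries. Il1rl1 was detected in 60.2% and 56.0% of Control, 44.8% and 45.9% of Ezh2 KO and 72.5% and 76.5% of Jarid2 KO members. Over the libraries Gata3 ran from 71.5% to 94.4%, Skap1 from 79.2% to 90.2%, Ccr9 from 48.0% to 79.9% and Rnf128 from 24.5% to 50.4%. The members held 81.6% of all Rnf128 UMIs of the kept cells, 72.2% of Il1rl1, 67.4% of Skap1, 38.6% of Gata3 and 30.6% of Ccr9. The commonest combination was all 5 genes, in 311 cells. The next was Il1rl1, Gata3, Ccr9 and Skap1 without Rnf128, in 289 cells, of which 17 were Control, 28 Ezh2 KO and 244 Jarid2 KO. In the cells with 3 or more markers Rnf128 stood at 300.1 and 192 CPM for Control, 412 and 269.7 for Ezh2 KO and 108 and 112 for Jarid2 KO; the Jarid2 KO libraries were lowest, a description since the rule used the gene. Libraries shared few barcodes, between 9 and 34 kept barcodes for each of 15 pairs, and 1 member barcode occurred in more than 1 library.

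The share of members was highest in both Jarid2 KO libraries and lowest in both Control libraries. They made up 1.72% and 1.18% of kept cells in the Control libraries (123 and 100 cells), against 2.33% and 1.95% for Ezh2 KO (221 and 196 cells) and 4.66% and 4.97% for Jarid2 KO (363 and 374 cells). Exact binomial 95% intervals, which cover counting error only, ran from 0.964% to 2.05% over the Control libraries, from 1.69% to 2.65% in Ezh2 KO and from 4.21% to 5.48% in Jarid2 KO. No genotype overlapped another, but Ezh2 KO and Control did with doublets left out, with at least 5 UMIs, with cells thinned to 2000 UMIs and without Gata3, Ccr9 or Skap1 among the markers. The mean share in Jarid2 KO was 3.32 times that of Control and 2.25 times that of Ezh2 KO, and Ezh2 KO stood at 1.48 times Control. An exact two-sided permutation test of 2 libraries against 2 gave p = 0.3333 for each, which is the smallest such a design allows.

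Among cells with 3 or more markers the ratio of Jarid2 KO to Control was larger, and the Ezh2 KO and Control libraries overlapped. These cells numbered 85 and 52 for Control (1.19% and 0.615%), 102 and 93 for Ezh2 KO (1.07% and 0.926%) and 273 and 308 for Jarid2 KO (3.51% and 4.09%). Jarid2 KO stood at 4.22 times Control and 3.80 times Ezh2 KO. Ezh2 KO stood at 1.11 times Control (exact permutation p = 1). B-lineage cells, taken as kept cells with 3 or more of the 6 B-lineage genes, made up 22.9% and 13.4% of kept cells in Ezh2 KO against 7.71% and 2.67% in Control and 3.34% and 3.89% in Jarid2 KO; their part in the shares was not tested beyond leaving them out of the denominator. A second definition that used none of the rule's genes (Bcl11b, Il2ra, Il17rb, Cxcr6 and Klrg1, with the same UMI limits) took 660 cells, of which 95.5% were members, and 45.8% of the members met it. By it the shares were 0.670% and 0.450% for Control, 0.843% and 0.757% for Ezh2 KO and 2.39% and 3.08% for Jarid2 KO. This definition was not among the planned settings. Most UMIs of its genes Bcl11b and Il2ra lay in the members, so the overlap is a description. Its gene Cxcr6 was called higher in Jarid2 KO than in Control members (edgeR log2 1.25, adjusted p = 0.0118), and the part of this in the shares was not tested.

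**Figure D1:**
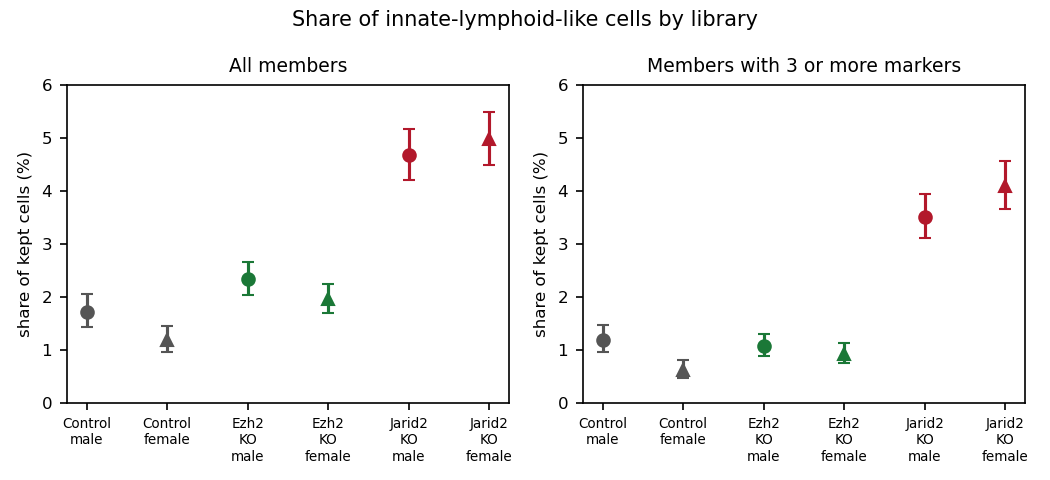
Share of kept baseline cells that met the rule (left) and that detected 3 or more of its 5 genes (right), in percent, for each of the 6 libraries; bars are exact binomial 95% intervals. The Jarid2 KO libraries lie at 4.66% and 4.97% on the left and at 3.51% and 4.09% on the right, above all 4 others in both.

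The identity of the members was read from lists of genes outside the rule. They are given as levels, a description. edgeR called 3726 of 16190 genes (23%; 11.1% higher and 11.9% lower) between members and other kept cells, an outcome that the rule itself sets. The median log2 difference was 1.74 over the 12 innate lymphoid regulators and 4.07 over the 16 receptors, against -0.04 over all genes.

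Regulators of innate lymphoid commitment, some of them shared with T cell precursors, were among the genes high in cells with 3 or more markers. Levels are given for part of the 12 listed. Id2, which blocks E proteins and with them B and T cell fates, stood at 388 to 842 CPM over the 6 libraries in cells with 3 or more markers, 74.1 to 155 in those with 2 and 8.29 to 19.3 in other kept cells. Bcl11b, needed by group 2 innate lymphoid cells and T cells, stood at 302 to 473, 19.8 to 143 and 0.103 to 0.379 CPM in the same order, and 94.7% of its UMIs lay in the members. Rora, a nuclear receptor required for group 2 cells, stood at 321 to 653 CPM with 3 or more markers and 60.1 to 91.1 in other cells. Ets1 stood at 249 to 514 and 21.6 to 55.7 CPM, and Maf at 71.9 to 268 and 4.65 to 17.7. In each of these 5 genes the lowest library of the cells with 3 or more markers exceeded the highest library of the other cells. Tcf7 and Zbtb16, which mark early shared precursors, were present in both kinds of member: Tcf7 at 34.9 to 103 and 23.9 to 101 CPM with 3 or more and with 2 markers, and Zbtb16 at 25.7 to 92.0 and 12.9 to 152.

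Receptors of innate lymphoid cells followed. Il7r, the interleukin-7 receptor, stood at 388 to 892 CPM in cells with 3 or more markers and 12.9 to 85.9 in other kept cells, whose B-lineage cells also carry it. Il2ra, the high-affinity chain of the interleukin-2 receptor, stood at 110.4 to 237 against 0.0723 to 0.503 CPM, and the members held 84.9% of its UMIs. Il17rb, the receptor for interleukin-25, stood at 97.0 to 130.1 against 1.29 to 1.8 CPM. Cxcr6, a homing receptor of innate lymphoid precursors, stood at 99.6 to 212 against 0.816 to 1.45, and Thy1 at 46.2 to 84.2 against 0.841 to 2.53 CPM. Klrg1, a receptor of mature group 2 cells, was low at 1.86 to 15.5 CPM, and Pdcd1, a precursor receptor, stood at 0 to 6.87 CPM. Crlf2, a chain of the thymic stromal lymphopoietin receptor, stood at 20.6 to 72.3 CPM against 53.9 to 92.5 in other cells. The list of 14 antigen receptor adaptors summed to 3604 to 5383 against 543.7 to 640.4 CPM. That list also holds the lipid phosphatase Inpp4b, which alone stood at 2248 to 3937 against 43.9 to 78.5 CPM.

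Transcripts of the type 2 effector cytokines Il5 and Il13 were scarce. Il5 reached at most 1.45 CPM and Il13 at most 5.82 CPM in any library of the cells with 3 or more markers. Csf2, which encodes a myeloid growth factor, stood at 21.4 to 34.9 CPM there and at most 0.0929 in other cells. Il4, another type 2 cytokine, stood at 20.5 to 50.8 CPM against 1.14 to 4.27 in other cells. Areg, a tissue repair ligand, stood at 5.13 to 29.8 CPM and Arg1, an arginase of group 2 cells, at 52.0 to 159.8. The co-receptor chain of interleukin-33, Il1rap, stood in the same cells and in others at 25.5 to 36.1 and 21.4 to 25.1 CPM.

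Markers of other lineages were checked over whole lists. Cells with 3 or more markers had smaller UMI totals than the other classes. Shares of cells that detect genes were not matched for depth. Transcripts of T cell receptor loci, which 3′ counts do not resolve into rearranged and unrearranged, were present: in cells with 3 or more markers Trbc2 stood at 223 to 353 CPM and its near-identical neighbour Trbc1 at 127 to 302, and the split between them is uncertain. The T cell list of 14 genes summed to 408.7 to 783.2 CPM there, 140.2 to 474.5 in cells with 2 markers and 5.80 to 13.3 in other cells. In the same order 30.1%, 20.3% and 0.577% of cells detected 2 or more genes of this list, and 7.23%, 12.5% and 0.167% detected 3 or more. Among its other members Tcrg-C1 stood at 13.8 to 109 CPM, Cd3g at 2.57 to 49.8 and Trdc at 4.36 to 41.9 in cells with 3 or more markers, against at most 0.534, 1.56 and 0.155 in other cells. Cd3e, a chain that every T cell receptor needs, stood at 0 to 7.23 CPM there, and Cd8a was at 0 in all 6 libraries. Natural killer genes (10 listed) summed to 55.3 to 280.0 CPM in cells with 3 or more markers, 235.7 to 597.6 in cells with 2 and 67.7 to 120.8 in other cells. Ncr1, a receptor that defines natural killer and group 1 cells, stood at 0 to 10.3 and 14.2 to 69.9 CPM, so the higher level belonged to the cells with 2 markers. Dendritic genes (12 listed) summed to 369.7 to 518.5 CPM with 3 or more markers, 368.9 to 1034 with 2 and 536.2 to 709.1 in other cells, and 28.1%, 79.7% and 78.6% of these cells detected 2 or more of them. Siglech, a plasmacytoid dendritic marker of that list, was at 0 with 3 or more markers. Eosinophil genes (5 listed) summed to at most 16.2 CPM. Erythroid genes (8 listed) summed to 326.8 to 2442 CPM in cells with 2 markers, 46.5 to 772.9 with 3 or more and 107.5 to 449.8 in other cells. The cells with 2 markers exceeded the other cells of their own library in all 6, and 12.7% of them detected 3 or more erythroid genes, against 1.20% with 3 or more markers and 2.33% of other cells. Mast cell and basophil genes (11 listed) summed to 159.3 to 974.0 CPM against 70.6 to 93.2 in other cells, with Cpa3 at 120.1 to 545 and Ms4a2, which defines both cells, at 0 in 4 of 6 libraries. For the 464 cells with 2 markers these genes bear out the label innate-lymphoid-like less: Id2 and Bcl11b were lower in them than in the other members in all 6 libraries, while Mecom, a stem cell factor, stood at 235 to 540.5 CPM against 76.2 to 181 with 3 or more markers.

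Stem cell and myeloid genes were detected in the cells with 3 or more markers, at lower summed levels than in other cells. The 12 stem cell genes summed to 796.5 to 1407 CPM there against 1677 to 2394 in other kept cells. The 10 myeloid genes summed to 77.8 to 243.8 CPM against 460.2 to 844.1. The list of 12 lymphoid-primed genes summed to 932.2 to 5160 CPM against 1309 to 1983, and exceeded other cells of the same library in the male Control only. For the 8 megakaryocyte genes the sums were 104.8 to 423.3 against 156.0 to 309.9 CPM. They exceeded other cells of the same library in the male Control and male Jarid2 KO only. The 12 genes of G2 and mitosis summed to 168.0 to 990.7 CPM against 982.2 to 1541, and were lower than in the other cells of the same library in 5 of 6 libraries. The exception was the female Control, at 990.7 against 982.2 CPM. The 12 S phase genes summed to 363.6 to 1070 CPM against 992.4 to 1192, and both classes of the female Control lay close together, at 1070 and 1086 CPM. The 5 lymphoid-primed genes Dntt, Flt3, Rag1, Satb1 and Notch1 were used to set apart lymphoid-primed cells, 45.2% to 52.3% of the kept cells of a library. Their nearness to the members was not measured. Against the lymphoid-primed cells edgeR called 3834 of 15001 genes (25.6%; 12.7% higher and 12.8% lower in the members), again an outcome that the rule sets.

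**Figure D2:**
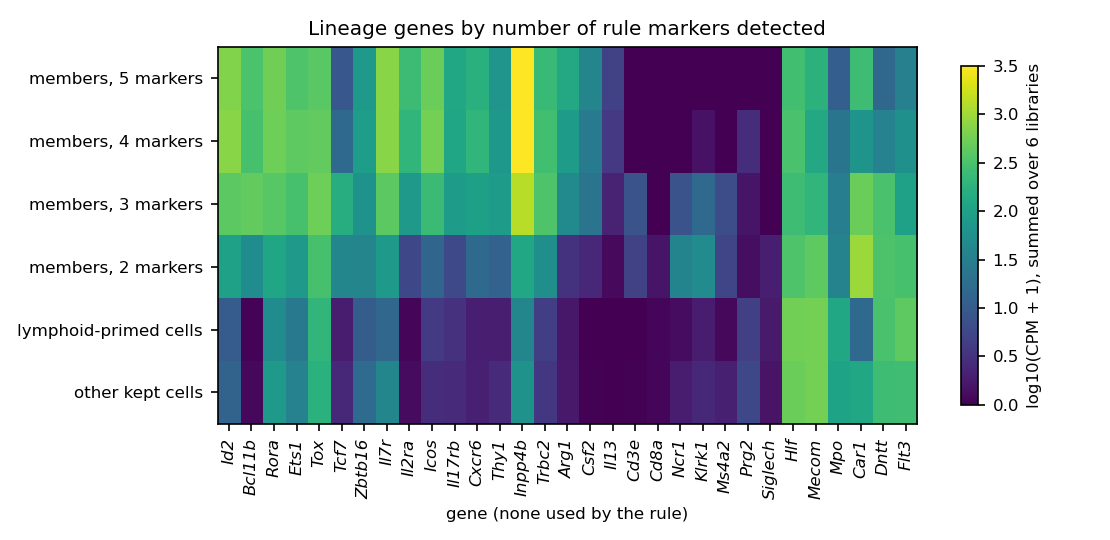
Levels of 31 lineage genes that the rule did not use, as log10(CPM + 1) from UMIs summed over the 6 libraries, in members by number of rule genes detected, in lymphoid-primed cells and in other kept cells. Id2, Bcl11b, Il7r, Icos and Inpp4b are bright in members with 3 to 5 genes and dim below; Ncr1, Klrk1 and Mecom are brighter in members with 2 genes.

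Stab2 transcripts lay almost wholly in the members. The gene encodes a scavenger receptor for hyaluronan known from sinusoidal endothelium. Of 7266 Stab2 UMIs in the kept cells, 97.4% lay in members and 96.1% in members with 3 or more markers; the share in members was 83.1% to 93.4% in the Control and Ezh2 KO libraries and 99.2% and 98.5% in the Jarid2 KO libraries, and that of Bcl11b ran from 83.4% to 98.3% over the 6. It was detected in 71.3% of those (median 4091 to 4299 UMIs), in 2.59% of members with 2 markers (median 14393 UMIs), in 0.244% of other kept cells and in 0.247% of B-lineage cells, and these last shares are the level read as background. Summed over the libraries, members also held most UMIs of Flrt2, an adhesion and guidance protein (80.8%), Klrg1 (70.6% of 51 UMIs), Icos, a costimulatory receptor (68.2%), Pparg, a lipid-sensing nuclear receptor (61.8%), Cxcr6 (59.4%), Stxbp6, a vesicle fusion regulator (52.9%) and Arg1 (51.4%). The Jarid2 KO libraries weigh most in these sums. In the 4 others the share was 42.3% to 52.4% for Flrt2, 31.5% to 43.3% for Icos, 31.0% to 47.1% for Cxcr6 and 14.3% to 25.8% for Stxbp6. There it was 34.9% to 53.3% for Pparg, 36.3% to 51.7% for Arg1 and 52.9% to 100% for the few Klrg1 UMIs. The members were 2.73% of kept cells.

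The surface antibodies, which the rule did not use, placed the members with 3 or more markers, and with them the members as a whole, at high Sca1 and low c-Kit within the sorted gate. For each antibody the share of members above the median count of their own library was compared with 50%, by an exact sign-flip permutation test over the 6 libraries with adjustment over the 6 antibodies. Sca1, read through streptavidin-PE, was above its library median in 77.2% and 63.0% of members for Control, 69.7% and 74.0% for Ezh2 KO and 84.8% and 85.8% for Jarid2 KO. All 6 libraries lay above 50% (mean excess 25.8 percentage points ± 8.82 SD, n = 6, adjusted exact p = 0.0375). CD117, the c-Kit protein, was above its median in 15.0% and 29.0% of members for Control, 29.2% and 35.7% for Ezh2 KO and 16.5% and 18.9% for Jarid2 KO. It was low in all 6 libraries (-25.9 ± 8.39 points, adjusted exact p = 0.0375, n = 6).

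The proteins of stem cells and multipotent progenitors were low as well. CD135 (Flt3), which marks lymphoid-primed progenitors, was low in 6 of 6 libraries (-27.8 ± 11.9 points, adjusted exact p = 0.0375). CD201 (Procr), which marks stem cells, was low in 6 of 6 (-23.9 ± 6.14, adjusted exact p = 0.0375). CD150 (Slamf1) was low in 6 of 6 (-13.6 ± 4.54, adjusted exact p = 0.0375), but with members set against cells of like depth its adjusted exact p was 0.075. CD48, a marker of committed progenitors, did not pass (16.4 ± 23.1 points, adjusted exact p = 0.1875). The Ezh2 KO libraries had the highest library medians for CD48, 1553 and 1194 counts against 433 to 862.5 in the others, and their members were above those medians in 33.9% and 50.0% of cases. Elsewhere 56.1% to 93.0% of members exceeded the library median.

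The profile lay in the members with 3 or more markers. Sca1 was above the library median in 89.3% of them (mean of 6 libraries), CD117 in 9.24%, CD135 in 6.60%, CD201 in 15.0% and CD150 in 25.5%. The excess over 50% was 39.3 points for Sca1 and -40.8, -43.4, -35.0 and -24.5 points for the 4 others, each with an adjusted exact p of 0.0375 over 6 libraries. CD48 did not pass in these cells (12.7 ± 36.4 points, adjusted exact p = 0.469). It was above the library median in 7.84% and 37.6% of them for Ezh2 KO, against 50.6% to 96.8% in the other libraries. In members with 2 markers the shares of CD117, CD150 and Sca1 lay nearer 50%: CD117 was above the median in 39.5% to 53.8%, CD150 in 46.6% to 56.8% and Sca1 in 36.8% to 68.0%, with both Control libraries below 50% for Sca1 at 36.8% and 39.6%. CD48 was above 50% in all 6 libraries (56.3% to 75.8%) and CD201 below it in all 6 (41.2% to 45.6%). CD135 ran from 29.2% to 67.2%.

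**Figure D3:**
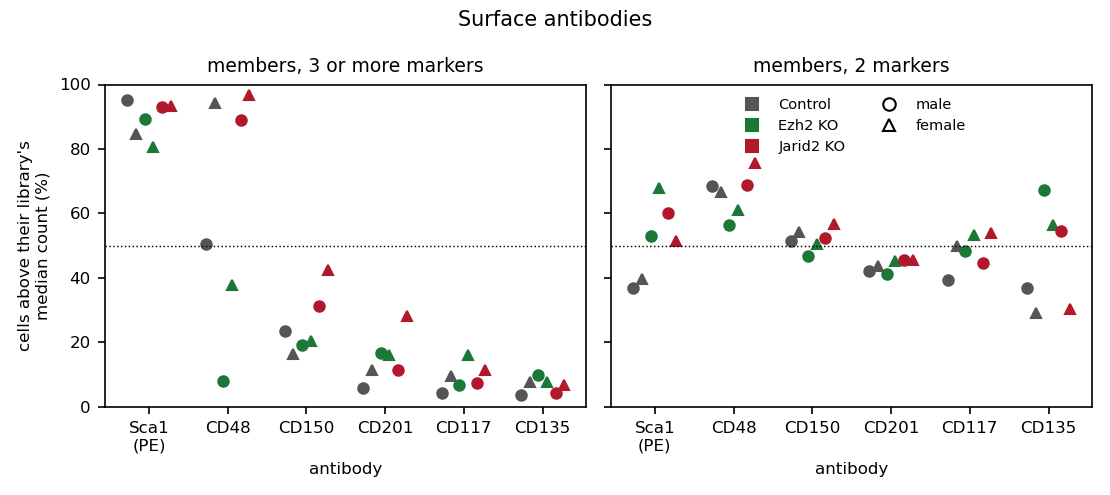
Percent of members above the median antibody count of their own library, for 6 antibodies, in members with 3 or more rule genes (left) and with 2 (right); each point is 1 library and the dotted line is 50%. On the left Sca1 lies between 80.6% and 95.3%, CD117 between 4.12% and 16.1% and CD135 between 3.53% and 9.80%; on the right Sca1 lies between 36.8% and 68.0%.

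Within the members, Jarid2 KO was compared with Control gene by gene, with edgeR's quasi-likelihood test on UMIs summed per library, a term for sex and Benjamini-Hochberg adjustment over all 11809 genes tested. It called 42 genes (0.356%), 20 higher and 22 lower in Jarid2 KO (0.169% and 0.186%). By value alone the groups did not overlap in 32.4% of the genes tested. Leaving out 1 library gave 33 to 221 calls, the most without the female Ezh2 KO library, which enters through the shared estimate of spread. Without the sex term 19 genes were called, all among the 42, and DESeq2 called 35, of which 32 were shared. The share of members with 3 or more markers differed between genotypes (69.1% and 52.0% for Control, 46.2% and 47.4% for Ezh2 KO, 75.2% and 82.4% for Jarid2 KO), so values among these cells follow.

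Stab2, Icos, Flrt2, B3galt2 and Stxbp6 were higher in Jarid2 KO members. Stab2 stood at 121 and 129 CPM for Control, 96.7 and 129 for Ezh2 KO and 949 and 970.5 for Jarid2 KO. The Jarid2 KO libraries were far above the 4 others, which lay close together (edgeR log2 2.95, SE 0.16, adjusted p = 5.67e-06). With 3 or more markers it stood at 275 and 408 CPM for Control, 412 and 508 for Ezh2 KO and 2057 and 1532 for Jarid2 KO, again without overlap (log2 2.39, adjusted p = 3.99e-06). In mean UMIs per cell with 3 or more markers that was 1.40 and 3.06 for Control, 2.79 and 3.18 for Ezh2 KO and 10.4 and 10.7 for Jarid2 KO.

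Icos, the costimulatory receptor through which group 2 cells are sustained, stood at 83.2 and 76.0 CPM for Control, 92.3 and 72.2 for Ezh2 KO and 339 and 311 for Jarid2 KO (edgeR log2 2.04, SE 0.16, adjusted p = 8.08e-05). In members with 3 or more markers Icos stood at 185 and 216 CPM for Control, 351 and 254 for Ezh2 KO and 724 and 489 for Jarid2 KO, highest in both Jarid2 KO libraries (log2 1.55, adjusted p = 0.000127).

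Flrt2 stood at 11.2 and 11.3 CPM for Control, 8.14 and 13.0 for Ezh2 KO and 69.5 and 85.5 for Jarid2 KO (edgeR log2 2.81, SE 0.25, adjusted p = 0.000216; log2 2.39, adjusted p = 8.4e-05 with 3 or more markers). B3galt2, a galactosyltransferase of the glycan pathway, stood at 20.3 and 17.8 CPM for Control, 17.6 and 20.4 for Ezh2 KO and 105 and 89.2 for Jarid2 KO (edgeR log2 2.36, SE 0.21, adjusted p = 0.000216; log2 2.02, adjusted p = 0.000319). Stxbp6 stood at 86.3 and 41.2 CPM for Control, 32.2 and 29.6 for Ezh2 KO and 238 and 252 for Jarid2 KO (edgeR log2 2.01, SE 0.23, adjusted p = 0.00174; log2 1.58, adjusted p = 5.71e-05). In each of these genes both Jarid2 KO libraries lay above the 4 others. Maf, a transcription factor of helper and innate lymphocytes, rose by log2 1.66 (adjusted p = 0.00393 by edgeR; log2 1.37, adjusted p = 0.000771 with 3 or more markers). There its male Ezh2 KO library, at 208.1 CPM, lay between the Jarid2 KO libraries.

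Sema3d, a guidance ligand, rose by log2 2.50 and Ccr2, a chemokine receptor of marrow exit, by log2 1.87 (edgeR adjusted p = 0.0028 and 0.0112). Both remained called with 3 or more markers (log2 2.77 and 1.53), Sema3d in 6 and Ccr2 in 4 of 6 fits with a library left out. The neutrophil genes S100a8 and S100a9 rose from a low level: S100a9 stood at 5.07 and 1.62 CPM for Control, 13.6 and 6.09 for Ezh2 KO and 52.8 and 28.3 for Jarid2 KO (edgeR log2 3.63, SE 0.37, adjusted p = 0.000715), and S100a8 had log2 3.68, adjusted p = 0.0039. With 3 or more markers the changes were log2 3.22 and 3.27 (adjusted p = 0.000168 and 0.00794). Other kept cells held S100a9 at 2.01 to 4.63 CPM. Cxcr6 rose by log2 1.25 over all members (adjusted p = 0.0118, edgeR) but had log2 0.71, adjusted p = 0.0848 with 3 or more markers.

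The genes lower in Jarid2 KO members included some genes of early lymphoid progenitors, and no enrichment of such genes was tested. Ly6d, a surface protein of B-committed progenitors and plasmacytoid dendritic precursors, stood at 178 and 94.6 CPM for Control, 77.0 and 78.7 for Ezh2 KO and 4.32 and 6.07 for Jarid2 KO (edgeR log2 -4.62, SE 0.30, adjusted p = 1.77e-05). Few cells carried it: 4.72% of members and 3.40% of those with 3 or more markers detected Ly6d. Its 2 Jarid2 KO libraries were lowest, also with 3 or more markers, where the male Control was at 23.1 CPM (log2 -3.70, adjusted p = 0.000125). Dntt, the enzyme that adds bases at antigen receptor joints, stood at 286 and 177 CPM for Control, 593 and 291 for Ezh2 KO and 109.7 and 47.4 for Jarid2 KO (edgeR log2 -1.62, SE 0.16, adjusted p = 0.000568; log2 -2.19, adjusted p = 0.000428 with 3 or more markers). Arpp21, a phosphoprotein of lymphoid progenitors, had log2 -1.62 (adjusted p = 0.00131) and Plac8 had -1.38 (adjusted p = 0.00131), both on the log2 scale by edgeR. With 3 or more markers their changes were log2 -2.30 and -1.98, adjusted p = 1.8e-06 and 1.12e-05.

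Cmah, an enzyme of sialic acid modification, had log2 -1.62, adjusted p = 0.00174 by edgeR and log2 -2.85, adjusted p = 4.39e-05 with 3 or more markers. Trat1 and Themis, both adaptors of T cell receptor signalling, had log2 -2.36, adjusted p = 0.0028 and log2 -1.19, adjusted p = 0.0253, and with 3 or more markers log2 -2.02 and -1.51 (adjusted p = 0.022 and 9.29e-05), calls that held in 4 and 6 of 6 fits with a library left out. Clec12a, an inhibitory lectin receptor, had log2 -2.21, adjusted p = 0.00966 by edgeR, and log2 -2.52, adjusted p = 0.0316 with 3 or more markers, a call that held in 1 of 6 fits with a library left out. Tcf7 stood at 82.2 and 73.6 CPM for Control, 40.4 and 56.5 for Ezh2 KO and 28.9 and 36.1 for Jarid2 KO (edgeR log2 -1.24, SE 0.20, adjusted p = 0.019), and with 3 or more markers had log2 -1.17, adjusted p = 0.0509. Apoe, a lipid carrier, had log2 -1.31, adjusted p = 0.00169 over all members and log2 -1.57, adjusted p = 0.261 with 3 or more markers. Cacna1e, a calcium channel gene, had log2 -2.83, adjusted p = 0.0169; it stood at 0 to 6.93 CPM with 3 or more markers and was not tested there.

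Of the genes named for this comparison, Stab2, Icos, Flrt2, B3galt2, Stxbp6, S100a9, Ly6d, Dntt, Arpp21, Plac8, Cmah and Apoe passed with each of the 6 libraries left out in turn. Without the male Control library Trat1 (adjusted p = 0.055), Clec12a (0.0775), S100a8 (0.0895), Tcf7 (0.184), Themis (0.304) and Cacna1e (0.304) missed the threshold. Without the female Control library Sema3d (0.0563), Maf (0.0709), Clec12a (0.0964), Cxcr6 (0.239) and Ccr2 (0.478) missed it, all by edgeR. Cxcr6 missed it without the female Jarid2 KO library as well (0.114). Without the sex term Ccr2 (adjusted p = 0.448), Dntt (0.389), Themis (0.302), Cmah (0.278), Sema3d (0.146), Arpp21 (0.123), Tcf7 (0.113), S100a9 (0.0535) and S100a8 (0.0527) were not called, though their log2 changes stayed close to those above, such as -1.56 for Dntt and -1.64 for Arpp21.

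**Figure D4:**
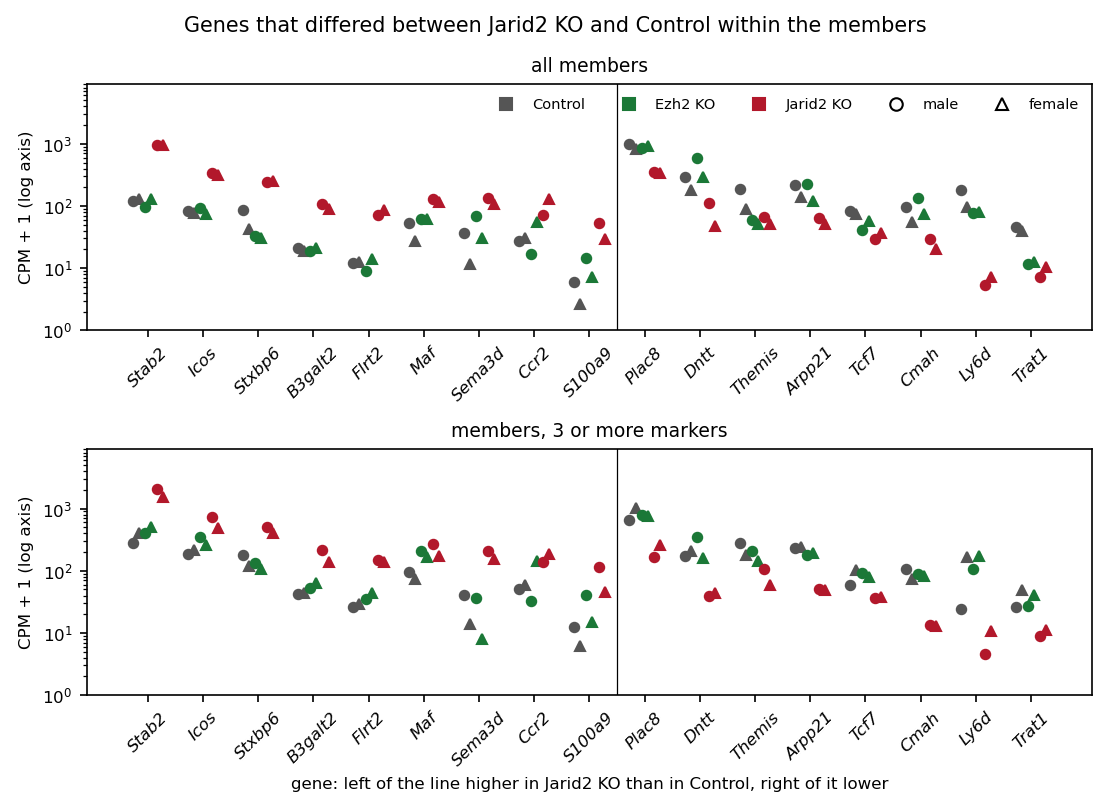
CPM + 1 on a log axis of 17 genes that edgeR called between Jarid2 KO and Control members, one point per library, over all members (top) and members with 3 or more rule genes (bottom). The red Jarid2 KO points lie above the others for Stab2, Icos, Stxbp6, B3galt2 and Flrt2 and below them for Dntt, Arpp21, Ly6d, Trat1, Plac8 and Cmah in both panels.

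Against 0.356% of all genes called, 2 of the 12 listed innate lymphoid regulators were called in Jarid2 KO, Maf higher and Tcf7 lower, with a median log2 change of 0.22 against 0.00 over all genes. Of 16 receptors Icos and Cxcr6 were called higher (median 0.45), and of 14 antigen receptor adaptors Themis was called lower (median -0.01). The median was 0.33 over 6 effectors, 0.16 over 12 genes of interleukin-33 signalling, -0.02 over 12 PRC2 genes and -0.41 over 12 S phase genes. With 3 or more markers, where edgeR called 85 of 8329 genes, Maf and Zbtb16 of 10 regulators tested were higher, Icos and Il18r1 of 12 receptors were higher, and Arg1 of 6 effectors was lower. Maf and Il18r1 were also called higher in Ezh2 KO against Control in these cells, and neither was called between Jarid2 KO and Ezh2 KO. Arg1 stood at 94.7 and 151 CPM for Control, 155 and 159.8 for Ezh2 KO and 57.5 and 52.0 for Jarid2 KO. S phase genes had a median log2 change of -0.79 there with 1 of 12 called lower (Pcna, a replication clamp, at 139 and 252 CPM for Control, 172 and 192 for Ezh2 KO and 90.2 and 124 for Jarid2 KO). The 12 G2 and mitosis genes had a median of -0.89 with none called. Of 9 lymphoid-primed genes tested Satb1 and Dntt were lower (median -0.47). Trdc of 5 T cell, Gzma of 3 natural killer, Ctsg of 3 myeloid and Ly6d of 4 dendritic genes were lower as well. Hlf of 5 stem cell and Itgb3 of 3 megakaryocyte genes were higher. Of 7 homing receptors 2 were higher and 1 lower.

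Whether a change in members differed from that in other kept cells was tested as an interaction over 17934 genes, where edgeR called 158 (0.881%) for Jarid2 KO against Control, 101 higher (0.563%) and 57 lower (0.318%) in the members. Each library was a block in this fit. Its p-values therefore measure the spread of the difference between members and other cells, not the spread of levels between libraries. Stab2 (log2 2.03), Icos (2.13), B3galt2 (2.33), Stxbp6 (1.99), Sema3d (2.35) and Ccr2 (2.79) had a more positive change in the members than in other cells, with an adjusted p of 2.27e-18 for Ccr2 and of 6.76e-07 for Stab2. Ly6d (-4.60), Arpp21 (-1.20) and Dntt (-0.99) had a more negative one. Ccr2 stood in other kept cells at 3.03 and 5.66 CPM for Control, 2.25 and 5.36 for Ezh2 KO and 1.498 and 3.06 for Jarid2 KO (log2 -0.93 against Control, adjusted p = 0.187), so its interaction exceeds its change within members. Stab2 outside the members stood at 0.143 to 0.498 CPM, and its interaction was not called by DESeq2 (log2 2.09, adjusted p = 0.392) or against lymphoid-primed cells alone (log2 2.05, adjusted p = 0.2). The Dntt interaction was not called against lymphoid-primed cells either (log2 -0.92, adjusted p = 0.188). Dntt is among the genes that chose those cells, so that fit cannot decide on it.

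Between Ezh2 KO and Control members edgeR called 47 of 11809 genes (0.398%), 32 higher (0.271%) and 15 lower (0.127%) in Ezh2 KO. Most of these were not found among members with 3 or more markers, where 14 genes were called and 3 of them were among the 47. Hmga2, a chromatin protein of fetal stem cells, stood at 28.4 and 27.5 CPM for Control, 98.8 and 107 for Ezh2 KO and 39.2 and 32.6 for Jarid2 KO (edgeR log2 1.84, SE 0.19, adjusted p = 0.00394). Among members with 3 or more markers Hmga2 stood at 16.2 and 23.1 CPM for Control, 36.1 and 20.6 for Ezh2 KO and 18.9 and 28.3 for Jarid2 KO (log2 0.57, adjusted p = 0.904), and other kept cells of the Ezh2 KO libraries held 104 and 111 CPM. Flt3 and Dntt, both of lymphoid-primed cells, had log2 1.20, adjusted p = 0.0152 and log2 0.85, adjusted p = 0.0425 over all members, against log2 0.41 and 0.39 with 3 or more markers (adjusted p = 0.96 and 0.866).

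Genes of the lymphoid program were among those lower in Ezh2 KO members, and their values too differed with the number of markers. Bcl11b stood at 288 and 189 CPM for Control, 117 and 107 for Ezh2 KO and 196 and 207 for Jarid2 KO (edgeR log2 -1.12, SE 0.18, adjusted p = 0.0277), but at 473 and 357 CPM for Control, 394 and 364 for Ezh2 KO and 385 and 302 for Jarid2 KO with 3 or more markers (log2 -0.13, adjusted p = 0.954), where the genotypes overlapped. Themis (log2 -1.32, adjusted p = 0.0202), Trbc1 (log2 -1.22, adjusted p = 0.0286) and Trat1 (log2 -1.96, adjusted p = 0.0152) had log2 changes of -0.37, 0.12 and -0.16 with 3 or more markers, adjusted p = 0.721, 0.982 and 0.985. Car1, an erythroid enzyme, had log2 -2.12, adjusted p = 0.0303 and, with 3 or more markers, log2 -5.60, adjusted p = 0.055, and was detected in 9.01% of members. DESeq2 did not call it over all members (adjusted p = 0.308), nor did edgeR without the male (0.0959) or the female Control library (0.157). The erythroid list summed to 894.1 and 1649 CPM for Control, 463.6 and 264.5 for Ezh2 KO and 1028 and 1404 for Jarid2 KO over the same members; its part in the Car1 value was not tested. Mpped2, a phosphodiesterase gene, was higher in both: it stood at 15.2 and 18.6 CPM for Control, 57.4 and 64.4 for Ezh2 KO and 21.6 and 24.3 for Jarid2 KO (edgeR log2 1.80, SE 0.23, adjusted p = 0.0117; log2 2.05, adjusted p = 0.0362 with 3 or more markers, called in 4 of 6 fits with a library left out).

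Cma1, a mast cell protease, was called higher in Ezh2 KO (edgeR adjusted p = 0.00306) on 38 and 204 UMIs in the Ezh2 KO libraries, 0 and 2 in Control and 0 in both Jarid2 KO libraries. Most came from the female Ezh2 KO library, and with 3 or more markers all 105 did. It was called neither by DESeq2 (adjusted p = 0.237) nor without the sex term (adjusted p = 0.28). Without the male Control library edgeR called 1 gene between Ezh2 KO and Control, which was Cma1 (adjusted p = 0.0225), and Hmga2, Mpped2, Flt3 and Bcl11b had an adjusted p of 0.0855, 0.0959, 0.241 and 0.293. The other single libraries left out gave 55 to 352 genes, and Cma1 then missed the threshold without the female Control (adjusted p = 0.0931) or the female Ezh2 KO library (adjusted p = 0.0667). Leaving out the sex term also left 1 called gene. The interaction called 546 of 17934 genes (3.04%), among them Il7r (log2 -1.95, adjusted p = 1.99e-31) and Ly6d (log2 -2.25, adjusted p = 4.97e-28). Against lymphoid-primed cells alone, which leave out cells with 3 or more B-lineage genes, Il7r had log2 -0.80 (adjusted p = 0.06) and Ly6d log2 -1.67 (adjusted p = 0.00714). With 3 or more markers Il7r had log2 -1.47 (adjusted p = 4.97e-08) and Ly6d log2 -0.92 (adjusted p = 0.281) by edgeR. The part of B-lineage cells in these values was not tested. Il1rapl2, an interleukin-1 receptor relative, had log2 1.51, adjusted p = 3.22e-11 in the interaction and log2 1.95, adjusted p = 0.0117 within members. It was not called within members with 3 or more markers (log2 2.45, adjusted p = 0.139) or in the interaction against lymphoid-primed cells (log2 0.95, adjusted p = 0.218).

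**Figure D5:**
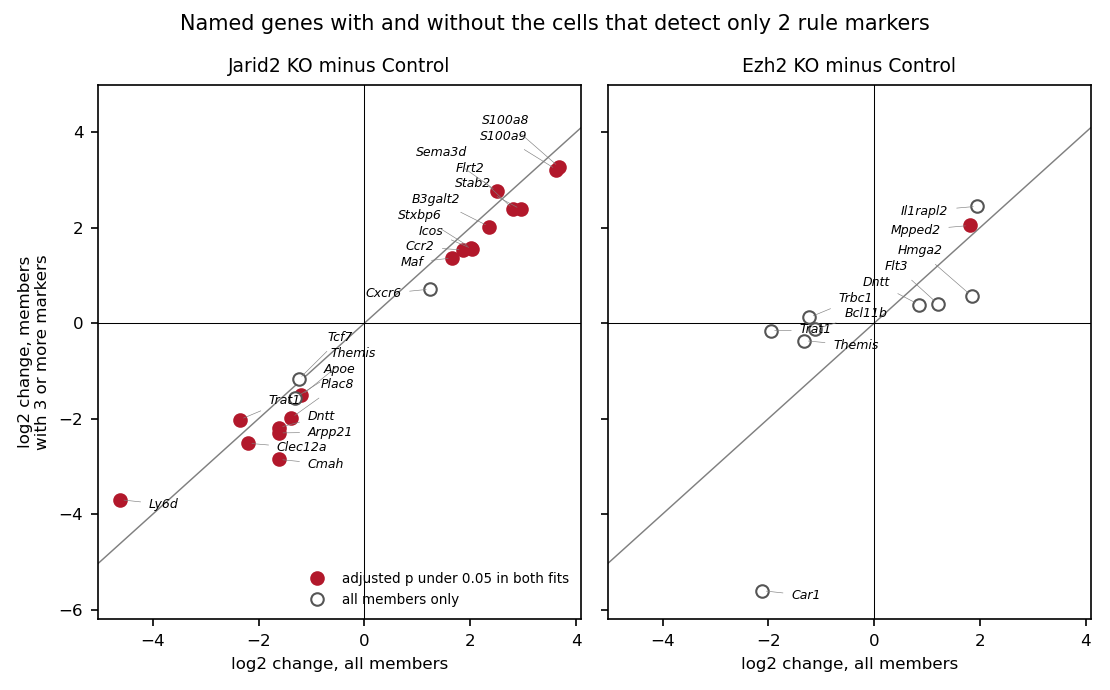
log2 change of the named genes over all members (x axis) and over members with 3 or more rule genes (y axis), for Jarid2 KO minus Control (left) and Ezh2 KO minus Control (right); the diagonal marks equal change and red points were called in both fits. On the left most genes lie near the diagonal; on the right Hmga2, Flt3, Dntt, Bcl11b, Trbc1, Trat1 and Themis lie between -0.37 and 0.57 on the y axis.

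Jarid2 KO and Ezh2 KO members differed directly in 368 of 11809 genes (3.12%), 149 higher (1.26%) and 219 lower (1.85%) in Jarid2 KO by edgeR. Stab2 (log2 3.15), Stxbp6 (3.05), Flrt2 (2.94), B3galt2 (2.40) and Icos (2.03) were higher in Jarid2 KO, with an adjusted p of 1.94e-06 for Stab2 and at most 2.2e-05 for the rest. With 3 or more markers the same 5 genes had log2 1.95, 1.92, 1.87, 1.59 and 0.97, adjusted p at most 0.00445. Ly6d (-3.82) and Dntt (-2.47) were lower (adjusted p = 3.73e-05 and 1.3e-05), and with 3 or more markers had log2 -4.43 and -2.58. Inpp4b (log2 1.41, adjusted p = 0.00282) and Bcl11b (0.91, adjusted p = 0.0156) were called over all members only; with 3 or more markers they had log2 0.30 and -0.17 (adjusted p = 0.465 and 0.803). Without the female Jarid2 KO library 151 genes were called and Bcl11b was not among them (adjusted p = 0.405), and 85 were called without the sex term. The comparisons of Jarid2 KO with Control and with Ezh2 KO share the Jarid2 KO libraries, so they are not independent of each other.

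Male and female members differed in 30 of 11809 genes by edgeR (0.254%; 19 higher in males, 0.161%, and 11 higher in females, 0.0931%), and in 19 to 388 with a library left out. Xist and Y-linked genes were not left out of these counts, and the sex labels fix their outcome. They are not named here. Pard3, a cell polarity gene, stood at 129 and 12.9 CPM for Control, 52.9 and 15.7 for Ezh2 KO and 29.9 and 5.78 for Jarid2 KO, male before female, so the male was higher in each genotype (log2 2.38, SE 0.25, adjusted p = 0.000896). Phlda1 (log2 1.75, adjusted p = 0.0135), Btla, an inhibitory lymphocyte receptor (log2 1.73, adjusted p = 0.0134), Dach2 (log2 1.08, adjusted p = 0.028) and Zfp36, an RNA decay factor (log2 0.76, adjusted p = 0.0415), were higher in males as well. The natural killer receptors Klre1 (log2 -2.47, adjusted p = 0.000988) and Klra4 (log2 -2.40, adjusted p = 0.00907) were higher in females, as was Eif2s3x, an X-linked translation factor known to escape inactivation (log2 -0.79, adjusted p = 0.0212). The mean share of members was 2.90% ± 1.56 (SD, n = 3) over male and 2.70% ± 2.00 over female libraries, a spread that holds the difference between genotypes. Within a genotype the male library was higher in Control (1.72% against 1.18%) and Ezh2 KO (2.33% against 1.95%). It was lower in Jarid2 KO (4.66% against 4.97%). Leaving out 1 Control library, male or female, ended the calls of Dach2, Zfp36 and Eif2s3x, and leaving out either Jarid2 KO library ended that of Eif2s3x. DESeq2 did not call Phlda1 (adjusted p = 0.0635), Zfp36 (0.19), Eif2s3x (0.199) or Btla (0.215). Among members with 3 or more markers Pard3 (log2 2.50), Phlda1 (2.03), Dach2 (1.46), Zfp36 (0.79) and Eif2s3x (-0.83) were called as well, while Btla, Klre1 and Klra4 were not tested. In cells with 2 markers the natural killer list was higher in the female library of each genotype, at 340.4 and 414.3 CPM for Control, 241.7 and 597.6 for Ezh2 KO and 235.7 and 368.1 for Jarid2 KO; its part in the sex differences was not tested.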

How the data were processed

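Bone marrow cells in the KSL gate from untransplanted mice (6 libraries) were read for transcripts and 6 TotalSeq-B surface antibodies (10x 3′ v3.1). The authors deposited unnormalised UMI counts for each barcode and feature, from Cell Ranger, 7.2.0 for the baseline and 6.1.2 for the transplant matrices per the file headers; the submitters' processing notes list Cell Ranger 3.1.0, Seurat 3.0, Partek and mm10. Kept cells had at least 1000 UMIs, at least 500 genes and at most 10% mitochondrial UMIs, which left 92105257 to 143133494 UMIs per library. Members were found by the rule given above, in Python 3.11.15. Doublets were not removed in the main analysis: the automatic Scrublet threshold (scanpy 1.11.5) marked 3 to 211 cells, so the highest scores, 0.8% per 1000 barcodes, were marked for an alternative, and 6.50% to 20.4% of members fell among them. UMIs were summed per library and class and tested with edgeR 4.0.16 (filterByExpr, TMM, quasi-likelihood, R 4.3.3) at an adjusted p under 0.05. Genotype fits held all 3 genotypes and sex as a term, the contrast of members with other cells was paired by library, and the interaction compared genotype changes between classes. Every adjusted p in the text is edgeR's unless another test is named. The fits were tested on simulated data: of genes changed 4-fold, 89% were recovered for members against other cells (15943 genes), 88% for Jarid2 KO against Control within members (11542 genes) and 58% for the interaction (17248 genes). Of genes changed 2-fold, 59%, 60% and 37% were recovered in the same fits. Unchanged genes called numbered 25, 6 and 7 in that order. Changed genes were drawn from those with a mean expected count above 10, so recovery at lower counts was not measured. The simulated counts held no other difference between classes or genotypes. Named genes were members of the lists, the targeted genes, Stab2 and Icos, and up to 10 rising and 10 falling genes per test with the largest change among called genes of at least 20 CPM whose groups did not overlap. Some genes that this rule covers are not reported here. Members, lists and tests were chosen with earlier results of these data known. Alternatives were DESeq2 1.42.0, other filters, doublets left out, other marker limits, thinning, the sex term left out and each library left out. The CUT&Tag libraries were not analysed here. Intervals and counts cover counting error only.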

Additional observations from a re-analysis of the deposited data

Results flagged for a closer look

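The edgeR interaction called 158 of 17934 genes (0.881%) whose change between Jarid2 KO and Control differed between members and other kept cells. Of these, 9 named genes are listed here. On the log2 scale the members' change exceeded that of other cells by 2.03 for Stab2, 2.13 for Icos, 2.33 for B3galt2, 1.99 for Stxbp6, 2.35 for Sema3d and 2.79 for Ccr2. It lay below that of other cells by log2 -4.60 for Ly6d, -0.99 for Dntt and -1.20 for Arpp21. The Stab2 interaction was called neither by DESeq2 (adjusted p = 0.392) nor by edgeR against lymphoid-primed cells alone (adjusted p = 0.2). Other kept cells held Ly6d at 59.2 and 16.7 CPM for Control, 123 and 63.8 for Ezh2 KO and 33.3 and 31.7 for Jarid2 KO, where Jarid2 KO lay between the Control libraries.

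Between Ezh2 KO and Control the interaction called 546 of 17934 genes (3.04%). Among those named it was 1.51 for Il1rapl2, -2.25 for Ly6d, -1.95 for Il7r, -2.04 for Trbc1 and -1.99 for Themis. With 3 or more markers Ly6d, Trbc1 and Themis no longer passed (adjusted p = 0.281, 0.739 and 0.684 by edgeR), and Themis also did not over all members without the male Control (adjusted p = 0.151) or the female Ezh2 KO library (adjusted p = 1). DESeq2 called neither Trbc1 nor Themis (adjusted p = 0.151 and 0.607). Il7r remained called with 3 or more markers (log2 -1.47, adjusted p = 4.97e-08 by edgeR). B-lineage cells, which carry Il7r, made up 22.9% and 13.4% of kept cells in Ezh2 KO against 7.71% and 2.67% in Control. Their part in the interaction was not tested. Against lymphoid-primed cells alone, which leave out B-lineage cells, Il7r had log2 -0.80 (edgeR adjusted p = 0.06) and Ly6d log2 -1.67 (adjusted p = 0.00714).

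The female Jarid2 KO library stood apart in CD150, with 45.1% of its members above the library median, while the other 5 libraries lay between 32.1% and 36.5%. Such a gap flags about 1 in 20 groups by chance.

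Transplant recipients held few cells that met the rule. After 18 weeks these were 0.979% and 0.601% of kept cells in the Ezh2 KO libraries and 0.808% and 0.757% in the Jarid2 KO libraries, against 0.300% (14 cells) in the 1 Control library. Of 65, 38, 44 and 41 such cells, 4, 5, 16 and 11 detected 3 or more markers, against 4 of the 14 in Control. As shares of kept cells these were 0.0603% and 0.0791% for Ezh2 KO, 0.294% and 0.203% for Jarid2 KO and 0.0858% for Control. By that count both Ezh2 KO libraries lay below Control. Stab2 was listed with 25 and 8 UMIs in the Jarid2 KO cells with 3 or more markers and 0 in the other 3 libraries; over all cells that met the rule it had 25 and 20 UMIs in Jarid2 KO, 11 and 0 in Ezh2 KO and 0 in Control. These differences were not tested.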

How the results depend on the processing

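The share of members in Jarid2 KO stayed above Control and above Ezh2 KO in all settings run. Ezh2 KO and Control overlapped in 7 settings, with a ratio of 1.11 with at least 3 genes, 1.42 with at least 5 UMIs and with doublets left out, 1.19 thinned to 2000 UMIs and 1.38, 1.17 and 1.34 without Gata3, Ccr9 and Skap1. The Jarid2 KO to Control ratio was 4.22 with at least 3 genes, 4.34 and 4.27 with cells thinned to 5000 and 2000 UMIs, and 4.88 with Bcl11b, Il2ra, Il17rb, Cxcr6 and Klrg1 as markers. The Jarid2 KO to Ezh2 KO ratio was 3.80 with at least 3 genes, 2.58 with at least 5 UMIs, 3.59 with cells thinned to 2000 UMIs, 2.79, 2.91 and 3.06 without Gata3, Ccr9 and Skap1, 1.89 with B-lineage cells out of the denominator and 3.42 with the other genes. Thinning to 5000 UMIs left out 699 of the 1377 members (50.8%) as too shallow. Thinning to 2000 UMIs kept 7117 to 9982 cells per library, of which 48 to 276 were members.

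Counts of called genes moved more. Jarid2 KO against Control gave 214 without a filter, 81 without doublets, 85 with 3 or more markers and 106 with only these genotypes in the fit; single libraries left out gave 33 to 221, and 50, 105, 113, 123 and up to 169 with 3 or more markers. Ezh2 KO against Control gave 446, 115, 14 and 277 in the same settings, and 1 to 352 or 25, 26 and up to 62 with a library left out. Jarid2 KO against Ezh2 KO gave 129 by DESeq2, 904 without a filter, 697 without doublets and 134 with 3 or more markers, and 151 to 590 or, with 3 or more markers, 69, 91, 118, 131, 230 and up to 254 with a library left out. With the replicate block, here the sex term, left out, the 3 contrasts gave 19, 1 and 85 genes. Requiring 20 CPM left 2186 genes for members against other cells and 2298 against lymphoid-primed cells, where fewer genes were tested.

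The interactions gave 47, 130 and 271 genes by DESeq2 (for the Jarid2 KO, the Ezh2 KO and the direct comparison), 14, 35 and 221 at 20 CPM, 87, 46 and 115 with 3 or more markers and 36, 47 and 291 against lymphoid-primed cells. With a library left out they gave 123 to 239, 226 to 593 and 335 to 1192. The causes were not tested.

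Among members with 3 or more markers some changes turned: Trbc1 in Ezh2 KO to 0.12, and 0.0986, 0.0989, 0.296 and 0.463 in 4 of its leave-one-out fits, and Bcl11b in Jarid2 KO against Ezh2 KO to -0.17 (-0.302, -0.18, -0.15 and up to -0.0357 with a library left out). In single leave-one-out fits of these cells Ezh2 KO against Control gave -0.19 for Hmga2, 0.053 for Trat1, -0.95 and -1.55 for Flt3, -0.037 and -0.37 for Dntt and 0.0074 for Bcl11b, and Jarid2 KO against Control gave 0.40 for Apoe. CD150 gave -13.0 points with cells matched on depth and -0.11 as a centred log2 difference, both no longer passing, and CD48 passed as a centred log2 difference (0.95). With 5 libraries the exact surface test cannot go below p = 0.0625, so leaving 1 out says nothing of stability there.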

Other observations

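In the cells of transplant recipients that detected 3 or more markers, Bcl11b stood at 809.2 CPM for Control, 671.3 and 182.5 for Ezh2 KO and 213.2 and 609.4 for Jarid2 KO, from 8 to 40 UMIs each. Il2ra had 21 and 8 UMIs in Jarid2 KO, 0 and 1 in Ezh2 KO and 0 in Control. These rest on 4 to 16 cells a library.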
